A study of Mus musculus with 1 sample.

Results

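The genes described here are 10 cell surface markers by which fibroblast subsets and activated fibroblasts are sorted or named: Fap, Lrrc15, Pdpn, Thy1, Cd34, Ly6a, Ly6c1, Dpp4, Pi16 and Islr. They were chosen by name, and each had 1 row in the deposited table, so that all 10 were measured among 23386 genes, 20559 of them protein-coding. By its labels, the measured RNA came from a single library of mouse fibroblasts grown out of normal pancreas and expanded in culture. The labels give a mixed C57BL/6 and BALB/c background. The genotype label gives a Cre-negative animal (tf1acre-) with floxed Tgfrb2 alleles, spelled as Tgfrb2flox/flox. The value column carries a CAF code, whereas the sample label says normal fibroblast. The condition and the origin from normal tissue are thus not settled, and the sample is called the library labelled normal fibroblast. With 1 library there is no replicate and no second group: no difference between conditions was tested, and each 95% interval below covers counting error only.

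Fibroblasts share a mesenchymal core but differ by tissue niche and state, and these surface proteins are the handles by which the states are told apart. Thy1 and podoplanin (Pdpn) mark most fibroblasts of connective tissue and tumour stroma. Fap and Lrrc15 are known from activated fibroblasts of tumours and healing wounds, Lrrc15 in particular from TGF-beta driven myofibroblasts. Cd34, Ly6a (Sca-1), Ly6c1, Dpp4 (CD26) and Pi16 mark the resting fibroblasts of the adventitia and interstitium, of which the Pi16 and Dpp4 expressing cells are regarded as a reservoir for other fibroblasts. Islr encodes meflin, a marker of mesenchymal stromal cells and of a restraining type of tumour fibroblast.

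The markers fell far apart in level. Thy1 and Pdpn were among the most abundant transcripts of the library, Ly6a and Cd34 were at intermediate levels, Islr and Dpp4 were lower, and Pi16, Ly6c1, Lrrc15 and Fap were near the bottom of the detected genes. Together the 10 genes held 63422 of 52494688 reads, or 0.121% (exact Clopper-Pearson interval 0.120% to 0.122%). Thy1 alone gave 66.6% of those reads, and Thy1 with Pdpn 90.5%. All 10 had at least 10 reads, the minimum set for detection, against 67.6% of protein-coding genes.

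To compare genes with each other, CPM values, which scale reads to a common library total, were divided by exonic length in kilobases, with the union of all annotated exons as the length. On this scale the order was Thy1, Pdpn, Ly6a, Cd34, Islr, Dpp4, Pi16, Ly6c1, Lrrc15 and Fap, and the highest level was 2750 times the lowest (1920 to 4110). The intervals of Islr and Dpp4 overlapped, as did those of Pi16 with Ly6c1, Ly6c1 with Lrrc15 and Lrrc15 with Fap, so the order of these neighbours is not settled by this rule. Overlap does not show that 2 levels are equal: the ratio of Dpp4 to Islr, with its own interval, was 0.849 (0.749 to 0.964) with the union of exons and 0.888 (0.783 to 1.01) with the transcripts of the deposited accessions. Of the 10 genes, 4 lay above 4.94 CPM per kilobase, the median of detected protein-coding genes, as did 33.9% of all protein-coding genes. The median of the markers was 2.44 CPM per kilobase. The share of markers above the median was thus close to the background, and the group as a whole is not an abundant one.

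**Figure D1:**
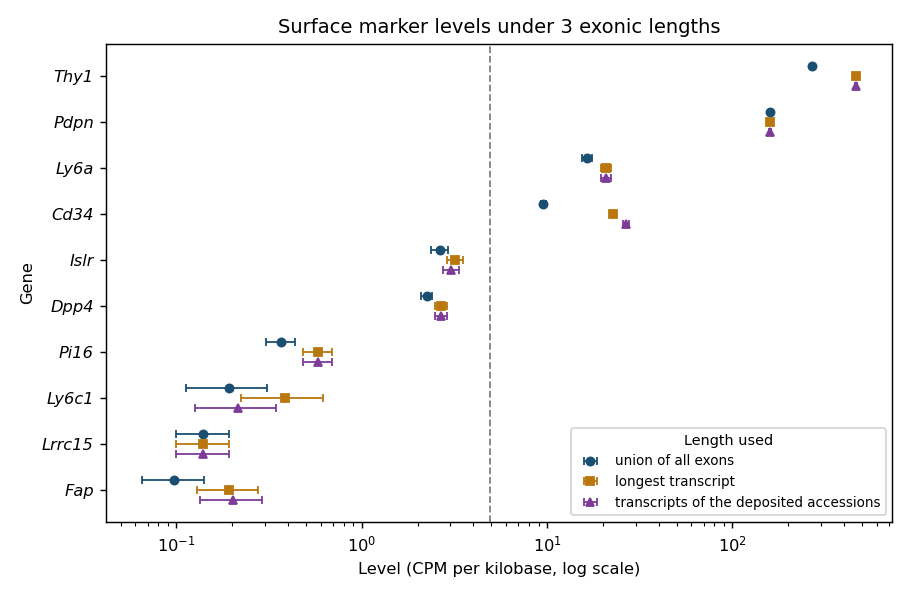
Level of each marker in CPM per kilobase (log axis) with its exact 95% Poisson interval, for 3 definitions of exonic length; the dashed line is the median of detected protein-coding genes on the union length, 4.94. Thy1 and Pdpn lie far to the right of the line under each length, and Pi16, Ly6c1, Lrrc15 and Fap far to the left.

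The choice of length mattered for several of them. The union counts every annotated exon, including those of partial and intron-retaining transcripts, whereas the deposited rows name few transcripts. With only the transcripts of the deposited accessions, Thy1 was at 464 instead of 269 CPM per kilobase, Cd34 at 26.6 instead of 9.535, Pi16 at 0.582 instead of 0.365 and Fap at 0.201 instead of 0.0976. Cd34 then stood above Ly6a, and Fap above Lrrc15, with overlapping intervals for the latter. The intervals of Pi16 and Ly6c1 no longer overlapped under this length, while they did with the longest transcript as the length.

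**Figure D2:**
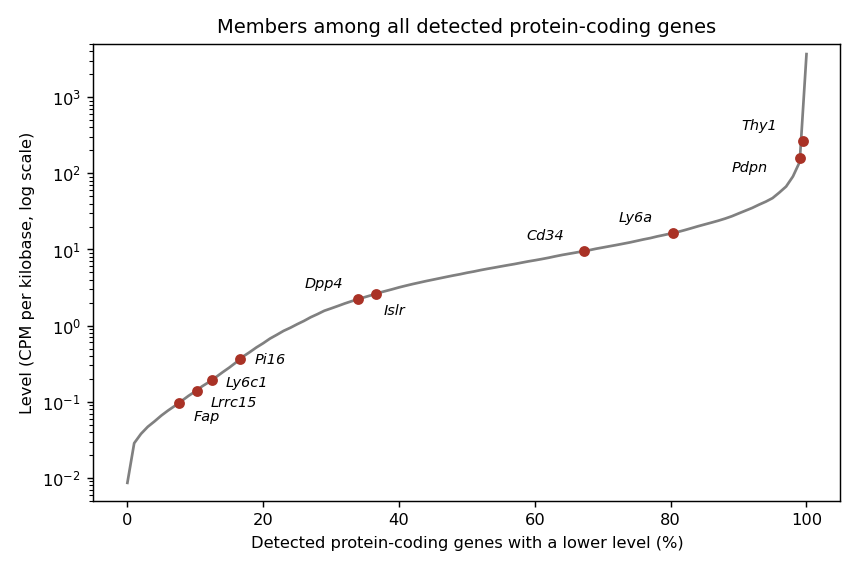
The grey line gives the level (CPM per kilobase, log axis) at each percentile of the 13832 detected protein-coding genes with a known length; red points are the 10 markers. Thy1 and Pdpn sit at the steep right end, above 99.5% and 99.1% of the genes, while Fap lies above only 7.65%.

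Thy1 and Pdpn are the surface glycoproteins most widely used to identify fibroblasts. Thy1, a small immunoglobulin-like protein held in the membrane by a GPI anchor (GRCm38.p6 chromosome 9, 44043384 to 44048579, forward strand), had 42248 reads. This came to 805 CPM (797.1 to 812.5) and 269 CPM per kilobase (266 to 271), at rank 65 of the 13832 detected coding genes. Pdpn, a mucin-type transmembrane protein that signals to the actin cortex (chromosome 4, 143267409 to 143299564, reverse strand), had 15164 reads. Its level was 289 CPM (284.3 to 293.5), or 159 CPM per kilobase (156.5 to 161.5), at rank 122. The level of Thy1 per length was thus 1.69 times that of Pdpn (1.66 to 1.72), or 2.92 times with the lengths of the deposited accessions. Nearest to Thy1 in level were Tagln2 above and Dstn below it, and nearest to Pdpn were Ctsb and Rpl32, a cathepsin and a ribosomal protein gene.

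Partners of both proteins were measured from lists of known contacts. Of 11 podoplanin partners, 9 were detected, and the same 9 lay above the median level per length. They included Msn (192 CPM per kilobase) and Ezr (120), the moesin and ezrin genes whose products link podoplanin to actin, the protease gene Mmp14 (106) and the hyaluronan receptor gene Cd44 (69.7). Of the other 2, Clec1b, the gene of the platelet receptor CLEC-2, had 2 reads and the chemokine gene Ccl21a had 0 reads, which allows up to 3. All 11 Thy1 ligands and partners were detected, and 7 lay above the median, led by Itgb1 (431 CPM per kilobase) and Cav1 (203). The integrin genes Itgav (70.1 CPM per kilobase) and Itgb3 (3.46), the chains of the alpha-v beta-3 integrin that binds Thy1, were on opposite sides of it. Itgam and Itgb2, the leukocyte chains that bind Thy1, were at 0.319 and 1.20 CPM per kilobase, and the syndecan gene Sdc4 was at 180.

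RefSeq start sites of GRCm38.p6 were matched for 7 of the 10 genes, and 2 promoter stretches are shown because they belong to the highest and the lowest per length of those 7, Pdpn and Lrrc15. Each line gives 240 bases that end 10 bases before the start, read 5′ to 3′ on the strand of the gene, with CpG dinucleotides in capitals. That of Pdpn is chr4:143299575-143299814 and that of Lrrc15 chr16:30283265-30283504, both on the reverse strand.
Pdpn: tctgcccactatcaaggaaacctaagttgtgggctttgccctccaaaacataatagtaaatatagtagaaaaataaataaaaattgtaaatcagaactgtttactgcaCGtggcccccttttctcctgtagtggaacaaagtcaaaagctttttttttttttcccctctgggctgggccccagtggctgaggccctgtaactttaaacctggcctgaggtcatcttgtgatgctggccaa
Lrrc15: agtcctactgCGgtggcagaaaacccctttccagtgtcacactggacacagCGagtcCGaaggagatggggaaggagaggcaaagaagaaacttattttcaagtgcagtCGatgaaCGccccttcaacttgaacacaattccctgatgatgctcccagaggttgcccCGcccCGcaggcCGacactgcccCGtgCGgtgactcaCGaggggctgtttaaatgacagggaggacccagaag
Within 250 bases before the start, Pdpn had 2 CpG dinucleotides and a GC content of 43.2%, with 1 of the 2 in the stretch shown, against 11 and 56.4% for Lrrc15. The median of 32841 such windows of all genes was 6 CpG and 52.4% GC. In this pair the abundant gene had the CpG-poor window and the scarce one the CpG-rich window. That contrast did not extend over the 7 genes, since the scarce Pi16 and Ly6c1 also had CpG-poor windows.

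Short motifs were searched in the same 250 bases on both strands. Among the 8 windows of the 7 genes, TATAAA occurred in 2, the first start of Ly6c1 and that of Dpp4, and in 12.4% of all windows. The GC box GGGCGG and the AP-1 motif TGACTCA occurred in 1 each, both in Lrrc15, against 32.7% and 4.46% of all windows. CACGTG, an E-box, occurred in Pdpn alone of the 8 (6.02% of all), the TEAD motif GGAATG in Dpp4 alone (12.6%), and the SMAD motif CAGACA in Islr and the second start of Ly6c1 (17.1%). No motif of the 6 was shared by more than 2 windows. CpG counts of the remaining windows were 6 for Cd34, 4 for Dpp4, 2 for Pi16, 1 for Islr, and 1 and 0 for the 2 starts of Ly6c1. The Pi16 window lies within an annotated exon, and 83 bases of the second Ly6c1 window do. The Islr window and the second Ly6c1 window lie inside the spans given below for their genes. The windows of Dpp4, Pi16 and the first Ly6c1 start reach into the spans of theirs.

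Fap and Dpp4 are sister genes, membrane-bound serine proteases that cut after proline. They lie 88620 bases apart on the reverse strand of chromosome 2, with only the glucagon gene Gcg between them among protein-coding genes. Fap, at 62500936 to 62575509, had 29 reads, or 0.552 CPM (0.370 to 0.793) and 0.0976 CPM per kilobase (0.0653 to 0.140). Dpp4, at 62330073 to 62412315, had 743 reads, or 14.15 CPM (13.15 to 15.21) and 2.24 CPM per kilobase (2.08 to 2.41). Dpp4 was 23.0 times Fap per length (15.9 to 34.5), and 13.4 times (9.24 to 20.1) with the lengths of the deposited accessions. Both were below the median of detected genes, so neither protease gene was abundant here. Around them, Gcg had 11 reads, Ifih1, the RNA sensor gene beyond Fap, 1633 reads (3.81 CPM per kilobase) and Slc4a10, the transporter gene beyond Dpp4, 4 reads.

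Fap and Dpp4 share little exact sequence. The longest stretch of the Fap coding sequence that also occurs in a Dpp4 transcript has 21 bases and is shown because it encodes the glutamates, in capitals, that hold the amino end of the substrate (coding bases 592 to 612; it spans an intron within chr2:62546708-62547770, reverse strand, transcript of GENCODE M21).
Fap and Dpp4: gactgggtttatgaaGAGGAA
No window of 35 bases in the deposited accession's transcript of either gene was found in another gene. Other annotated exons of Dpp4 share 232 bases with the opposite-strand gene Gm13561, not analysed here. In the list of 10 genes of the DPP4 family and related prolyl peptidases, 9 were detected and 6 lay above the median per length. Those 6 were the intracellular enzymes: the cytosolic Dpp8 (11.6 CPM per kilobase), Dpp9 (10.8), Prep (7.04) and Prepl (13.9), and the lysosomal Dpp7 (13.7) and Prcp (9.54). The 4 membrane-bound members, Dpp4, Fap, Dpp6 and Dpp10, were all below it, with 28 reads for Dpp6 and 5 for Dpp10.

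Of 13 genes listed for partners and substrates of the proteases, 10 were detected and 6 lay above the median. Cxcl12, a chemokine that Dpp4 inactivates, was at 140 CPM per kilobase, and Col1a1, whose denatured collagen is cleaved by Fap, at 424. Itgb1 (431) and Plaur (35.45), which encode proteins found in complex with Fap, were also above it. Ada, the adenosine deaminase gene of this list, was at 1.17 CPM per kilobase, and the peptide hormone substrates Gcg, Npy and Pyy had between 4 and 11 reads.

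Lrrc15 and Islr encode leucine-rich repeat proteins of the surface. Lrrc15 (chromosome 16, 30269302 to 30283254, reverse strand) had 39 reads, or 0.743 CPM (0.528 to 1.02) and 0.140 CPM per kilobase (0.0995 to 0.191). Its neighbour at 1769 bases, Cpn2, had 8 reads, and Gp5 on the other side, a platelet glycoprotein gene of the same family, had 21. Beyond Gp5, Atp13a3 had 34161 reads, so the low level did not extend over the whole neighbourhood. Islr (chromosome 9, 58156246 to 58159236, reverse strand) had 372 reads, or 7.09 CPM (6.385 to 7.844) and 2.64 CPM per kilobase (2.38 to 2.92). It was 18.9 times Lrrc15 per length (13.5 to 26.9) and 31.5 times its paralog Islr2 (21.2 to 48.9), which had 26 reads. An annotated Islr transcript shares 181 exonic bases with Islr2, but the transcripts of the deposited accessions share none.

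The low Lrrc15 and Fap stood beside abundant genes of the state that they are taken to mark. All 20 genes of the list of activated, TGF-beta type fibroblasts were detected, and 17 lay above the median per length, with a list median of 16.96 CPM per kilobase. Acta2, the smooth muscle actin gene, was at 2896 CPM per kilobase, Tagln at 1099 and Wisp1 at 69.9. Postn (22.8), the periostin gene, Itga11 (14.2), a collagen receptor, and Cthrc1 (10.75) were also above the median. Col11a1 (1.77), Col10a1 (0.0913) and Comp (0.07705) were below it, the last 2 at levels like that of Fap. Of 6 other genes linked to meflin, 3 exceeded Islr: Lox (347 CPM per kilobase), whose enzyme crosslinks collagen, the hedgehog transducer Smo (23.1) and Vdr (7.11), the vitamin D receptor gene. The hedgehog target Gli1 was at 0.198, and Bmp7, the ligand that meflin binds, had 2 reads.

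The leucine-rich repeat relatives differed as widely as the markers. Of 17 genes, 14 were detected and 5 lay above the median: Lrrn4 (58.7 CPM per kilobase), Lrrc32 (40.8), the receptor that holds latent TGF-beta, Lrig1 (10.2), Lrig3 (5.73) and Gp1bb (5.24). Islr was close to Lingo1 (2.83), and Lrrc15 close to Gp5 (0.182). Lrrn4 is also in the mesothelial list, described with the other cell types.

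**Figure D3:**
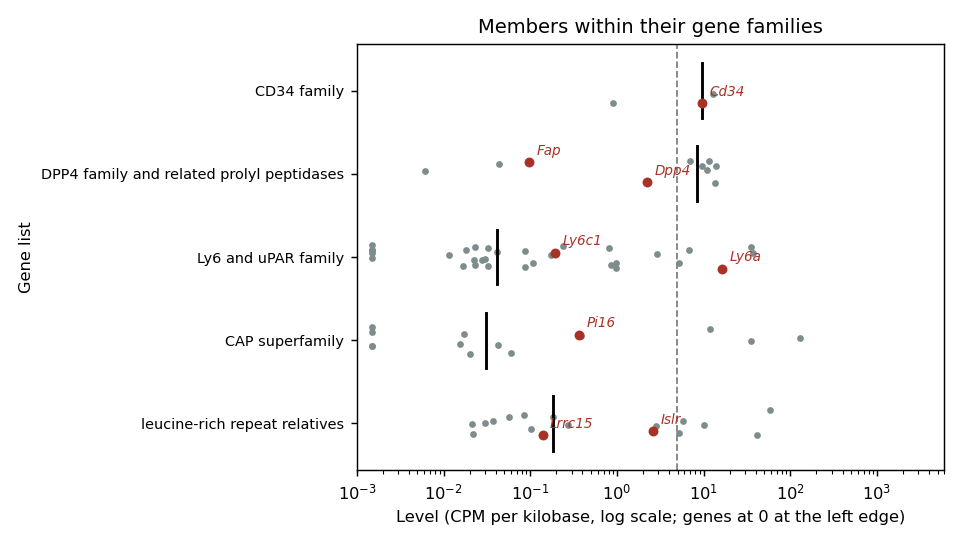
Level of each measured gene (CPM per kilobase, log axis) in 5 gene families; red points are the markers, grey points their relatives, black bars the family medians and the dashed line the median of detected protein-coding genes, 4.94. Fap and Dpp4 lie to the left of the cluster of intracellular peptidases, while Ly6a is among the 3 highest of its family with Ly6e and Plaur.

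Cd34, Ly6a, Ly6c1 and Pi16, with Dpp4, are the markers of resting adventitial fibroblasts, and their levels diverged. Cd34, a sialomucin also known from endothelium and blood stem cells (chromosome 1, 194938821 to 194961292, forward strand), had 3649 reads, or 69.5 CPM (67.3 to 71.8) and 9.535 CPM per kilobase (9.23 to 9.85). Ly6a (chromosome 15, 74994877 to 74998031, reverse strand) had 1039 reads, or 19.8 CPM (18.6 to 21.0) and 16.4 CPM per kilobase (15.4 to 17.5). Pi16, a GPI-anchored protein of the CAP superfamily (chromosome 17, 29318796 to 29328903, forward strand), had 122 reads, or 2.32 CPM (1.93 to 2.775) and 0.365 CPM per kilobase (0.303 to 0.436). Ly6c1 (chromosome 15, 75044018 to 75048920, reverse strand) had 17 reads, or 0.324 CPM (0.1887 to 0.5185) and 0.193 CPM per kilobase (0.1125 to 0.3092). Cd34 and Ly6a thus lay above the median of detected genes, and Dpp4, Pi16 and Ly6c1 below it.

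Within this set of 5, Cd34 was 26.1 times Pi16 per length (21.8 to 31.5), and 45.8 times (38.2 to 55.3) with the lengths of the deposited accessions. Dpp4 was 6.13 times Pi16 (5.06 to 7.49). Cd34 was 0.581 times Ly6a per length with the union of exons (0.542 to 0.623) but 1.29 times with the deposited accessions (1.20 to 1.38), so the order of these neighbours turns with the length used. Exons of Cd34 share 148 bases with the antisense gene Gm16897, which had 3 reads. Pi16 shares 222 bases with an opposite-strand gene of the annotation that was not analysed here.

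Other genes of the adventitial state were spread in the same way. Of 20 such genes outside the markers, 18 were detected and 11 lay above the median, with a list median of 5.18 CPM per kilobase. Timp2 (411.5 CPM per kilobase), an inhibitor of metalloproteinases, Anxa3 (145), an annexin gene, and Cd248 (134), which encodes the surface protein endosialin, led the list. Clec3b, the tetranectin gene, and Efhd1 had 9 and 6 reads, fewer than the detection minimum, and Dact2 and Col14a1 were at 0.203 and 0.733 CPM per kilobase. In its own CAP family of 14 genes, Pi16 had the fifth highest level with the union of exons, against a family median of 0.0312 CPM per kilobase. Above it, Glipr1 was at 128 CPM per kilobase, Glipr2 at 35.1 and Crispld2 at 11.9, and Pi15, the closest in name, at 0.388. With the longest transcript as the length, Pi16 (0.582) stood above Pi15 (0.388). Crisp1, Crisp3, Crisp4 and Glipr1l1 had no read, which allows up to 3 each.

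In the CD34 family, Podxl, the podocalyxin gene, had 3719 reads against the 3649 of Cd34. Per length Cd34 was 0.739 times Podxl (0.705 to 0.773) with the union of exons and 2.02 times (1.93 to 2.12) with the deposited accessions, so that here too the order turns. The third member, Podxl2, was at 0.898 CPM per kilobase. Among ligands and partners of Cd34 and Pi16, Selp, the P-selectin gene, was at 0.488 CPM per kilobase, the adaptor gene Crkl at 18.9 and Mmp2, the gelatinase that Pi16 binds, at 167.

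Ly6a and Ly6c1 lie 45986 bases apart in a cluster of near copies, and parts of them cannot be told from their relatives. Coding stretches shared with a close relative are shown because they limit what the 2 levels mean. Ly6c1 shares 188 of 444 coding bases in 1 run with Ly6c2 (coding bases 66 to 253, within chr15:75045545-75048446, across an intron). Ly6a shares 80 of 405 with Ly6i (bases 50 to 129, within chr15:74996510-74997555, across an intron) and 48 with Ly6c1 itself (bases 337 to 384, chr15:74995283-74995330). The last lies within a run of 52 bases (333 to 384) that Ly6a shares with Ly6c2. All are read from transcripts of GENCODE M21 on the reverse strand.
Ly6c1 and Ly6c2: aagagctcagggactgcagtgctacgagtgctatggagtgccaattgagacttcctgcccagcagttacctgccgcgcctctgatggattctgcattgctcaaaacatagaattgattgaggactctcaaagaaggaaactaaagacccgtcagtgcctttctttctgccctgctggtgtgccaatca
Ly6a and Ly6i: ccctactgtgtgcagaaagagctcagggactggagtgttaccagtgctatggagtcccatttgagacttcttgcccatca
Ly6a and Ly6c1: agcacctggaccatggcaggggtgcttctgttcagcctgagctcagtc
With Ly6e, the next gene of the cluster that was abundant, the coding sequence of Ly6a shares no run longer than 9 bases.

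Over the whole transcripts of the deposited accessions, 37.8% of 1499 windows of 35 bases in Ly6c1 also occur in another gene, most of them in Ly6c2 (33.4%), and 28.0% of windows of 50 bases. For Ly6a the shares were 19.1% (176 of 921) and, at 50 bases, 91 of 906 windows, spread over Ly6c1, Ly6i, Ly6c2 and others. Cd34 (4.49% and 3.91%) and Pi16 (4.82% and 4.46%) shared windows with their opposite-strand partners. Pdpn had 0.897% and 0.0566%, Islr 0.0867% and 0, and Thy1, Dpp4, Lrrc15 and Fap none at either length. Neither the read length nor the treatment of reads with several matches is stated, so the levels of Ly6a and Ly6c1 are uncertain by more than their intervals. In the table Ly6c2 and Ly6i each had 0 reads, which allows up to 3.

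**Figure D4:**
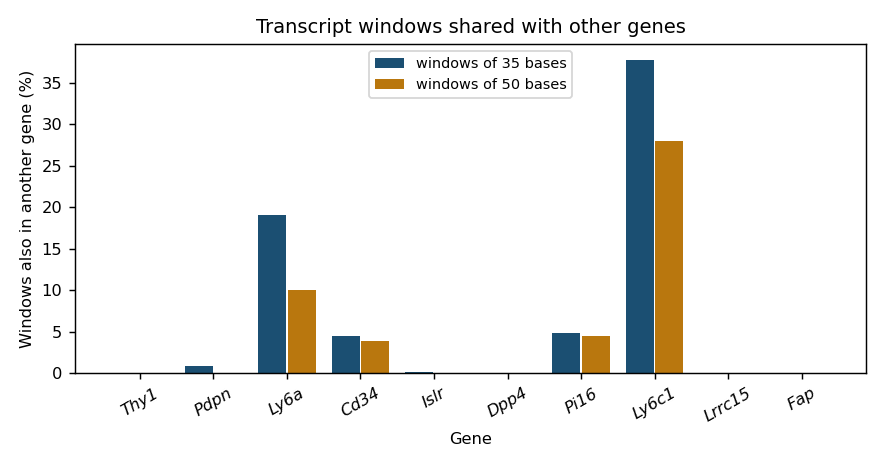
Share of transcript windows (%) of each marker that also occur in a transcript of another gene on either strand, for windows of 35 and 50 bases; bars start at 0. Ly6c1 and Ly6a stand out with 37.8% and 19.1% at 35 bases, and Thy1, Dpp4, Lrrc15 and Fap have no shared window.

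As deposited, Ly6a was 85.1 times Ly6c1 per length with the union of exons (52.9 to 147), 54.0 times with the longest transcript (33.6 to 93.1) and 96.1 times with the deposited accessions (59.7 to 166). Of 33 measured genes of the Ly6 and uPAR family, 15 were detected and 5 lay above the median: Ly6e (37.35 CPM per kilobase), Plaur (35.45), the urokinase receptor gene, Ly6a (16.4), Lynx1 (6.803) and Cd59a (5.21), an inhibitor of complement. Ly6e, the gene 34972 bases from Ly6a on the side away from Ly6c1, was 2.27 times Ly6a (2.13 to 2.43). Within this stretch of chromosome 15, reads were assigned unevenly: Ly6e with 7419 reads, Ly6i with 0, Ly6a with 1039, Ly6c1 with 17 and Ly6c2 with 0.

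Several of the markers are not confined to fibroblasts, so lists of other cell types were set beside them. The labelled cell type was described by 16 fibroblast identity genes, a list chosen with earlier results of these data known. This description does not test the label. All 16 were detected, 15 lay above the median per length and the list median was 155.5 CPM per kilobase. Sparc (1242 CPM per kilobase), Fn1 (906) and Vim (603) led, and Lum, at 2.16, was the exception. Cd34, Ly6a and Ly6c1 are shared with endothelium, where Pecam1 had 13 reads, Cdh5 17, Emcn 5 and Cldn5 0, while Kdr (20.1 CPM per kilobase), Eng (15.8) and Flt1 (7.55) were above the median. That list summed to 353 CPM in 12 genes, with a median of 0.142 CPM per kilobase. Most of the sum came from Kdr (181 CPM), Flt1 (102) and Eng (64.1), and Eng is also among the fibroblast surface proteins listed here. The part of endothelial cells in the 3 marker levels was not tested. Pdpn is shared with lymphatic endothelium, where all 6 genes lay below the median and Prox1 and Lyve1 had 57 and 23 reads, but Flt4 had 841 (1.95 CPM per kilobase).

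Thy1, Ly6a, Ly6c1 and Dpp4 are shared with T cells. The 10 measured T cell genes had between 1 and 26 reads each, with 94 in all. Lck (0.163 CPM per kilobase), Cd8b1 (0.0771) and Cd3g (0.0583) were the highest per length. Thy1 had 42248 reads, Ly6a 1039, Dpp4 743 and Ly6c1 17. The part of T cells in the levels of these markers was not tested. Of 8 haematopoietic progenitor genes, the markers Kit and Flt3 had 9 and 3 reads, Spi1 had 7, and Gata2 (16.1 CPM per kilobase) and Runx1 (10.3) were above the median. The macrophage and monocyte list summed to 31.1 CPM in 12 genes, with Lyz2 (6.99 CPM per kilobase) alone above the median, Cd14 (4.09) and Cd68 (3.56) next, and the leukocyte gene Ptprc had 26 reads. Dpp4 is also made by epithelia, whose 8 genes summed to 40.3 CPM, with Krt18 (8.22 CPM per kilobase) and Krt19 (5.98) above the median and Cdh1 (1.15) and Epcam (0.529) below it. Both keratins are also in the mesothelial list, and the part of epithelial cells in the Dpp4 level was not tested.

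Mesothelial genes differed from these. Pdpn is a known marker of mesothelium too, and 9 of 11 mesothelial genes lay above the median, with a list median of 29.6 CPM per kilobase and a sum of 1298 CPM. Bnc1 was at 101.5 CPM per kilobase, Upk1b at 67.6 and Msln at 29.6, against 159 for Pdpn. The part of such cells in the levels of Pdpn and the other markers was not tested, and in 1 bulk library fewer cells of a type and less RNA per cell cannot be told apart. Pericyte genes had a median of 0.991 CPM per kilobase, with Mcam (20.8) and Des (18.9) above the median of detected genes, Myh11 at 3.87 and Rgs5 and Kcnj8 at 6 and 8 reads.

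**Figure D5:**
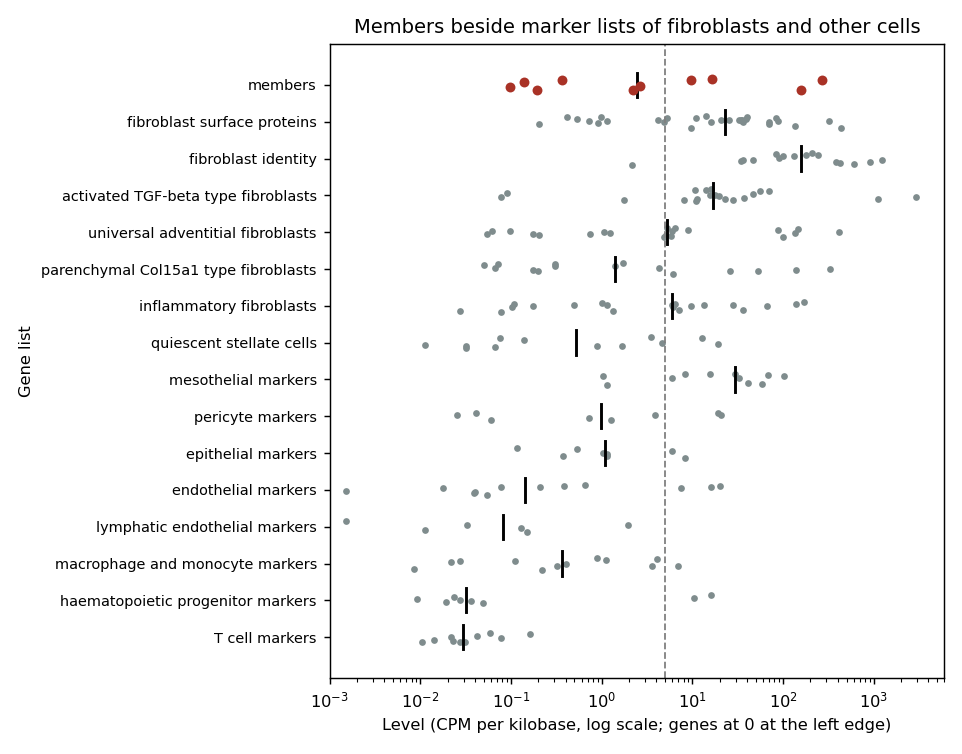
Level of each measured gene (CPM per kilobase, log axis) for the 10 markers (red) and 15 lists of fibroblast and other cell type genes (grey); black bars are list medians and the dashed line is the median of detected protein-coding genes, 4.94. The markers run from 0.0976 (Fap) to 269 (Thy1) with a median of 2.44, while 9 of 10 T cell genes lie below Fap and Sparc, Fn1 and Vim lie above Thy1.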

How the data were processed

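RNA of 1 cultured mouse pancreas fibroblast sample was prepared for sequencing with SOLiD library protocols, per the labels. The deposited signal is a normalised read count per gene: all 20976 values above 0 of its 24214 rows are whole multiples of 1.18 within 0.0051 reads, so whole reads were recovered (52494688 in total; 1 read is 0.0190 CPM). The submitters' processing notes name DESeq and mm10; aligner, counter, strand setting and filters: not given in the sources used here. No test was run, since 1 library allows none.

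Rows of 1 gene were summed. Lengths came from GENCODE M21 and coordinates and promoters from RefSeq for GRCm38.p6, the assembly that mm10 denotes. The values are CPM with exact Poisson intervals, CPM per kilobase, and ratios with exact binomial intervals; reads are not independent molecules. The members and the 26 gene lists were chosen with earlier results of these data known (325 of 328 names measured), and 1 gene that does not belong to its family was taken off a list after its values were seen. The rule for named genes took all 10 members, the 3 highest genes of each list, known contacts and close relatives, and the nearest genes in the genome and in level, not all of which are printed; further list genes were named after their values were seen. The recovery of reads was tested on simulated data. Some list genes and 1 allele are not reported here. Alternatives were other lengths, totals and detection minimums. The tools were matplotlib 3.10.9, scipy 1.17.1, pandas 2.3.3 and numpy 2.4.6 under Python 3.11.15.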

Additional observations from a re-analysis of the deposited data

How the results depend on the processing

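With a single library there was no replicate to leave out. No paired analysis was possible because only 1 library was used. The number of detected markers was 7 at a minimum of 50 reads, where Ly6c1, Fap and Lrrc15 dropped out. It was 10 at 1 read or with the highest row of each gene alone. Neither of these settings could change it, since each marker had 1 row and at least 10 reads. The number above the median per length stayed at 4 with the longest transcript and with the deposited accessions, a length chosen after seeing the data. It was 3 without division by length and 6 against all protein-coding genes. Of the 10 places in the order, 6 were kept with the longest transcript, 6 with the deposited accessions and 3 without division by length; Thy1, Pdpn and Pi16 held places 1, 2 and 7 in each. A total without the top 100 genes raised each level by 0.42 log2 units, past the counting interval for 7 of 10, and a total of coding genes raised it by 0.12, past it for 5 of 10. The deposited values scaled by their own sum moved none of the 10, which holds by construction because each value is its reads times the same constant. Depth limits Ly6c1, Fap and Lrrc15 most. Averaged over the lower and upper side, their intervals reached 50.9%, 38.3% and 32.8% from the level, farther above it than below.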

Other observations

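Other surface proteins of fibroblasts were more abundant than most of the 10 markers. Of 30 such genes, all were detected (10 reads or more) and 21 exceeded the median of 4.94 CPM per kilobase, with a list median of 23.0 CPM per kilobase. Itgb1, the beta-1 integrin gene, was at 431 CPM per kilobase, the receptor tyrosine kinase gene Axl at 321.5, Cd248 at 134 and Pdgfrb at 83.8. Nt5e (0.994), Anpep (0.419) and Mme (0.201), surface enzymes also used to sort stromal cells, were below the median.

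Thy1, Ly6a, Ly6c1, Pi16 and Islr encode proteins with a GPI anchor. Of 30 genes that make or attach this anchor, 29 were detected and 11 lay above the median, as did 33.9% of all protein-coding genes. Pigt (25.1 CPM per kilobase), Pigs (21.5) and Gpaa1 (16.2), which encode subunits of the transamidase, led the list. Pigk (4.64) and Pigu (2.75), which encode other subunits of it, were below the median. Pigz had 5 reads.

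Genes of other fibroblast states were measured as well. Of 20 inflammatory fibroblast genes, 15 were detected and 11 lay above the median, led by Ptgs2 (168 CPM per kilobase), Cxcl12 (140) and C3 (65.6), with Il6 at 1.14. Of 15 parenchymal genes, 5 lay above the median, led by Col4a1 (331 CPM per kilobase), Cxcl12 and Hspg2 (53.0), with Col15a1 itself at 1.41. Of 12 genes of quiescent stellate cells, only Des (18.9) and Plin2 (12.8) did, and Hgf was at 4.58.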
